A study of Mus musculus with 4 samples.

Results

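SiglecF hi neutrophils were compared with SiglecF lo neutrophils from the injured hearts of mice without *Cd300a*, with 1 RNA-Seq library on each side. The libraries were chosen by their labels and are 2 of the 4 libraries of the series. Of the 25655 genes in the files, 6488 had a mean level over 10 TPM in the 2 libraries and were tested. The unit TPM is a transcript level scaled for gene length and for the total of the library. The study examined how the receptor CD300a acts when blood flow returns to an ischemic heart or kidney. For MI/R, myocardial ischemia followed by reperfusion, male mice of 8 to 12 weeks had the left anterior descending artery tied for 60 minutes and then released, and hearts were taken on day 3. Digested hearts gave CD45.2+CD11b+Ly6G+ cells, which were sorted by SiglecF, and the cells of 8 mice were pooled for each library. The *Cd300a-/-* mice were on the C57BL/6 background and lacked the gene in every cell of the body, so cells other than neutrophils lacked it too. The same pair of subsets from WT C57BL/6J mice, given the same surgery, was set beside them. In the labels SiglecF hi is SiglecF-positive and SiglecF lo is SiglecF-negative. With 1 library of pooled animals a group, no P value was calculated, and the values describe these libraries.

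Neutrophils are made in the bone marrow, where they fill successive sets of granules with antimicrobial proteins and proteases, and they then circulate for hours before entering injured tissue. SiglecF is a sialic acid-binding receptor with inhibitory tyrosine motifs that is best known on eosinophils and alveolar macrophages, and in mice it also appears on neutrophils that have stayed in inflamed tissue, infarcted heart or tumors. CD300a is an inhibitory receptor of myeloid cells that binds the phospholipids exposed by dying cells.

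*Cd300a* (ENSMUSG00000034652, chr11:114780867-114795480) had 28 counts (1.06 TPM) in *Cd300a-/-* SiglecF lo and 27 counts (0.74 TPM) in *Cd300a-/-* SiglecF hi neutrophils. In WT it had 3024 counts (127 TPM) in SiglecF lo and 6640 counts (163 TPM) in SiglecF hi neutrophils. The gene was near 0 in both *Cd300a-/-* libraries, as their labels say. Positions are those of the files, for which the submitters' processing notes name GRCm39. *Siglecf* (ENSMUSG00000039013, chr7:43000765-43008955) had 237 counts (15.3 TPM) in SiglecF lo and 8682 counts (405 TPM) in SiglecF hi neutrophils of *Cd300a-/-* mice, a log2((TPM + 1) ratio) of 4.64. The transcript of the receptor used for the sort was thus high in the library sorted as SiglecF hi. *Ly6g* (ENSMUSG00000022582, chr15:75027089-75030975), the neutrophil surface antigen of the sort, had 4746 counts (889 TPM) in SiglecF lo and 310 counts (41.9 TPM) in SiglecF hi neutrophils, a log2 ratio of -4.37. Both gates required the Ly6G protein, and the transcript was nonetheless among the 12 largest falls. *Itgam*, the gene of CD11b, was at 550.4 TPM in SiglecF lo and 388 TPM in SiglecF hi neutrophils, and its span overlaps that of *Gm49368*, so that their reads may be hard to assign. *Ptprc*, the gene of CD45, was at 683 TPM in SiglecF lo and 710.0 TPM in SiglecF hi neutrophils.

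The typical gene was higher in SiglecF hi neutrophils on the TPM scale. Over the 6488 genes, SiglecF hi exceeded SiglecF lo by a median log2 ratio of 0.60 in *Cd300a-/-* and 0.53 in WT, and 80.3% of the genes tested in *Cd300a-/-* lay above 0. TPM of a library add up to a fixed total, of which the 10 highest genes held 26.7% in *Cd300a-/-* SiglecF lo and 11.8% in *Cd300a-/-* SiglecF hi neutrophils, against 22.8% and 12.3% in WT. Each ratio was therefore centred on the median of its own comparison, and a gene was counted as changed past 1 in either direction. After centring, 423 genes (6.52%) rose and 628 genes (9.68%) fell in *Cd300a-/-* SiglecF hi neutrophils, so 40.2% of the changed genes were higher. Without centring, 1672 genes (25.8%) were higher and 243 (3.75%) were lower, which is 87.3% higher. The counts given for each list below are to be read beside these shares, centred or uncentred. A gene counted as changed after centring has the same direction without it. After centring, the falls were deeper than the rises, with 155 genes past -2 and 48 past -3, against 43 past 2 and 12 past 3. They also came from more abundant genes. The median of the mean TPM was 59.6 for genes that fell, 19.8 for genes that rose and 33.4 for all genes tested. Of the 147 genes with a mean over 1000 TPM, 42 fell and 8 rose. Without centring each ratio is higher by 0.60, and the depth and level of the changes were not compared on that scale. The limit on the mean favours change in genes low in 1 library. Of the genes that rose, 262 were at or under 10 TPM in SiglecF lo neutrophils, and of those that fell, 93 were so in SiglecF hi neutrophils. Among members of the lists below these were *Cxcl5*, *Tnfsf9*, *Atp6v0d2*, *Atp5g1*, *Mertk*, *Tnnt2* and *Mb*, which rose, and *Csta2*, *Stfa3*, *Idi1* and *Myh11*, which fell. Each passed the limit on the mean through the library where it was higher, and the counts of its list include it. Together, the genes that fell went from 406249 to 124065 TPM and those that rose from 14747 to 59035 TPM.

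In *Cd300a-/-* mice the median gene tested had 507 counts in the SiglecF lo library, of 10988619 on all genes, and 1038.5 in the SiglecF hi library, of 17632989. The 95% counting interval of a log2 ratio, from the Poisson error of its 2 counts, reached a median of 0.15 to each side, and it lay wholly past 1 for 237 of the genes that rose and 513 of those that fell. Genes that rose had a median of 109 counts in SiglecF lo neutrophils and genes that fell had 1560.5, so the falls were measured more precisely.

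In WT, with each ratio centred on the WT median over the same genes, 334 genes (5.15%) rose and 507 (7.81%) fell. The WT and *Cd300a-/-* comparisons share no library. Of the 423 genes that rose in *Cd300a-/-*, 98 rose past 1 in WT too, which is 23.2% of the *Cd300a-/-* list and 29.3% of the WT list. Of the 628 that fell, 367 fell past 1 in WT, which is 58.4% and 72.4% of the lists. Past 1 in opposite directions were 4 genes of each list, and 364 of the 423 and 606 of the 628 had the same sign in WT. The fallen genes had a median centred ratio of -1.42 in *Cd300a-/-* and -1.11 in WT, and the risen genes 1.31 and 0.59. Genes were named as changed in *Cd300a-/-*, so a smaller median in WT follows in part from that choice. The centred ratios of the 2 genotypes had a Pearson r of 0.690 and a Spearman correlation of 0.626 across genes, and genes are not independent replicates.

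**Figure D1:**
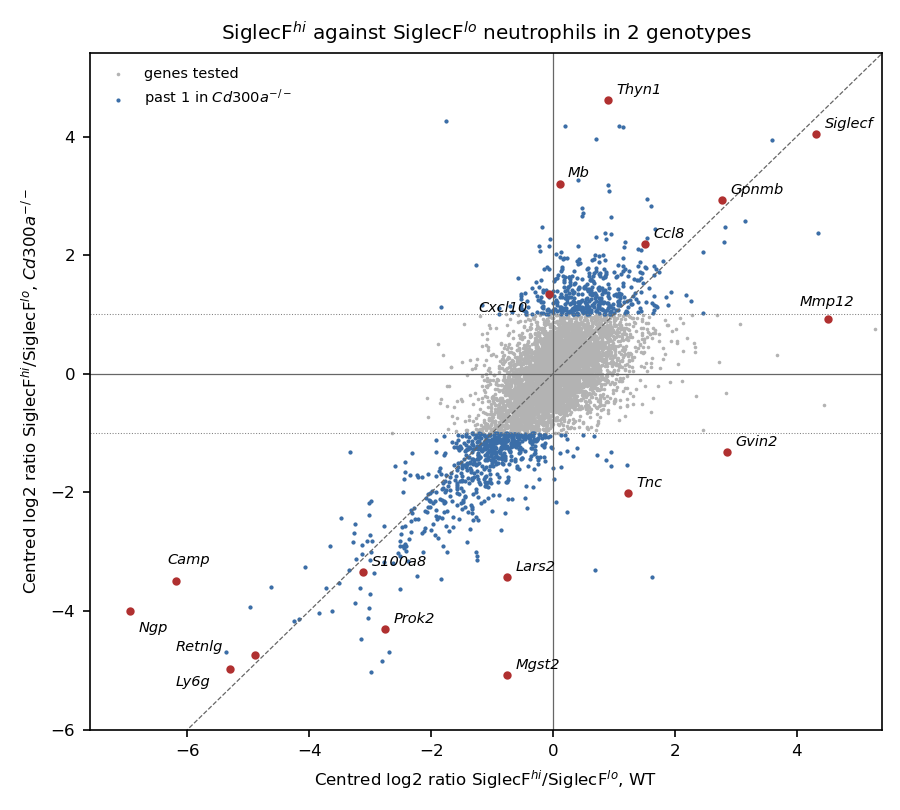
Centred log2((TPM + 1) ratio) of SiglecF hi to SiglecF lo neutrophils in *Cd300a-/-* (vertical axis) against WT (horizontal axis), 1 point for each of 6488 genes, with genes past 1 in *Cd300a-/-* in blue, named genes in red and the line of equal ratios dashed. Granule and circulating neutrophil genes lie far to the lower left and *Siglecf* and *Gpnmb* to the upper right, while *Mgst2*, *Lars2*, *Tnc*, *Gvin2*, *Thyn1* and *Mb* lie away from the line; without centring, all points move up by 0.60 and right by 0.53.

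Transcripts of other cell types were present in both libraries of Ly6G-sorted cells. Of 15 macrophage and monocyte genes, all were tested, 4 rose and 1 fell (8 and 1 uncentred), and their median was 0.41 (0.81 in WT). Their summed level was 5791 TPM in SiglecF lo and 15612 TPM in SiglecF hi neutrophils of *Cd300a-/-* mice, and 6692 and 16779 TPM in WT. The most abundant of them was *Apoe*, the gene of a lipid carrier, at 2109 TPM in SiglecF lo and 8107 TPM in SiglecF hi neutrophils. The complement genes *C1qa*, *C1qb* and *C1qc*, made mainly by macrophages, reached 1769, 2036 and 1389.7 TPM in SiglecF hi neutrophils, from 755, 754 and 544 TPM, and did not pass 1. The genes that rose were *Apoe*, *Trem2*, *Ms4a7* and *Mertk*, with centred ratios of 1.34, 1.76, 1.31 and 1.31. *Mertk* passed the limit on the mean through its SiglecF hi level. *Ly6c2*, a marker of inflammatory monocytes, was the gene that fell, from 706 to 226 TPM. In libraries of sorted populations, fewer cells of a type and less RNA per cell cannot be told apart, and the part of these transcripts in the results was not tested.

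Among the other lists, eosinophil genes were of interest because eosinophils carry SiglecF. *Prg2*, *Epx*, *Ear1* and *Ear6*, which encode eosinophil granule proteins, had 0 counts in both *Cd300a-/-* libraries. The 8 eosinophil genes summed to 87.9 and 119.8 TPM in *Cd300a-/-* and to 173 and 117 TPM in WT, nearly all of it *Ear2*, a member of a multigene family of ribonucleases whose counts are uncertain. It was the gene tested, at 85.9 TPM in SiglecF lo and 113 TPM in SiglecF hi neutrophils, and did not pass 1. All 6 mast cell and basophil genes were at 0 in both libraries. The 6 dendritic cell genes, led by *Flt3* in SiglecF hi neutrophils, summed to 2.45 and 7.10 TPM (13.5 and 5.69 in WT), and none was tested. The 11 genes of T, B and NK cells, led there by *Cd79b* and with *Cd3e* at 0, summed to 17.9 and 21.5 TPM (12.8 and 13.7 in WT), and none was tested either. Of 10 fibroblast genes, 9 were tested and 1, *Fbln1*, rose (2 uncentred), with sums of 1238 and 1899 TPM (1283 and 2617 in WT) and *Dcn* the most abundant. Endothelial genes differed between the genotypes. Their sum was 219.6 TPM in SiglecF lo and 544 TPM in SiglecF hi neutrophils of *Cd300a-/-* mice, and 669.6 and 414 TPM in WT, and the most abundant was *Fabp4*. Of the 10 endothelial genes 5 were tested, none passed 1 in *Cd300a-/-* and 5 fell in WT after centring. Without it 2 were higher past 1 in *Cd300a-/-*, and in WT *Pecam1* alone was past -1, at -1.27. Of 10 cardiomyocyte genes 3 were tested and 2 rose, *Mb* and *Tnnt2*, with sums of 30.1 and 117 TPM (56.5 and 73.2 in WT), *Nppa* at 0 and *Mb* the most abundant in *Cd300a-/-* SiglecF hi but *Myl2* in *Cd300a-/-* SiglecF lo neutrophils. *Mb* and *Tnnt2* had 1.30 and 5.22 TPM in SiglecF lo neutrophils, and with a limit in both libraries neither was tested. Red cell and platelet genes summed to 1024 and 1640.2 TPM (1769.7 and 1771 in WT), with *Gp1bb* at 0 and none of 5 tested past 1 (1 uncentred). The most abundant was *Pf4* in SiglecF hi and *Hba-a2* in SiglecF lo neutrophils of *Cd300a-/-* mice. The *Hba* and *Hbb* copies are too alike for their counts to be certain. The 12 proliferation genes summed to 144 and 499 TPM (219 and 539 in WT), and the 2 that were tested rose. *Pcna*, which clamps DNA polymerase to its template and also serves in repair, was at 99.4 TPM in SiglecF lo and 351 TPM in SiglecF hi neutrophils, and *Stmn1*, a regulator of microtubules, at 15.3 TPM in SiglecF lo and 64.4 TPM in SiglecF hi neutrophils. The part of these cell types in the results was not tested.

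Genes of neutrophil granules and of neutrophils in the circulation were lower in SiglecF hi neutrophils without CD300a. Of 10 genes of the specific granules, 7 fell and none rose, with a median centred ratio of -3.09 (-2.49 uncentred, -2.93 in WT). By the construction of the centring, the median over all genes tested is 0. *Lcn2*, the gene of the iron-sequestering protein lipocalin-2, was at 6124 TPM in SiglecF lo and 568 TPM in SiglecF hi neutrophils (2385 and 242 TPM in WT), a centred ratio of -4.03 (95% counting interval -4.07 to -3.99). *Ngp*, which encodes a cathelin-related granule protein, was at 3096 TPM in SiglecF lo and 293 TPM in SiglecF hi neutrophils, with a counting interval of -4.05 to -3.94 for the centred ratio. In WT it was at 1177 and 13.0 TPM, a deeper fall of -6.93. The same was true of *Camp*, the gene of cathelicidin, at 339 TPM in SiglecF lo and 44.8 TPM in SiglecF hi neutrophils and at 298 and 4.96 TPM in WT, with centred ratios of -3.49 and -6.18. For both genes, and for the other specific granule genes that fell, the levels in both subsets were higher in *Cd300a-/-* than in WT. The other genes that fell were *Cd177*, *Pglyrp1*, *Olfm4* and *Ltf*, which encodes lactoferrin, with centred ratios of -3.87, -3.19, -2.98 and -2.69. *Chil3*, at 623 to 522 TPM, and the NADPH oxidase genes *Cyba*, at 1473 to 1461 TPM, and *Cybb*, at 178 to 244 TPM, did not pass 1. The summed level of the 10 genes went from 16081 to 3831 TPM in *Cd300a-/-* and from 8479 to 3173 TPM in WT.

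All 10 genes of gelatinase granules and secretory vesicles fell (7 past -1 uncentred), with a median of -2.52 (-1.92 uncentred, -1.67 in WT). *Mmp8*, the neutrophil collagenase, was at 1647 TPM in SiglecF lo and 155 TPM in SiglecF hi neutrophils and at 619 and 71.8 TPM in WT, an uncentred ratio of -3.40 in *Cd300a-/-*. *Mmp9*, the gene of gelatinase B, was at 2257 TPM in SiglecF lo and 1684 TPM in SiglecF hi neutrophils, the smallest of these falls at -1.02. *Fpr1* and *Fpr2*, receptors for formyl peptides of bacteria and mitochondria, had ratios of -2.45 and -1.58. Granules of the earliest kind, the azurophil granules, are filled in promyelocytes, and their genes were nearly silent, with *Bpi* and *Ms4a3* at 0. Of the 6 present in the files, 1 was tested, *Prtn3* at 10.9 TPM in SiglecF lo and 14.3 TPM in SiglecF hi neutrophils, and the list summed to 14.3 and 17.2 TPM.

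Of 14 genes that mark circulating neutrophils, 13 fell (11 past -1 uncentred), with a median of -2.89 (-2.29 uncentred, -2.52 in WT). The alarmin genes *S100a8* and *S100a9* were the most abundant transcripts of SiglecF lo neutrophils. *S100a8* was at 83596 TPM in SiglecF lo and 12449 TPM in SiglecF hi neutrophils (61914 and 10370.0 TPM in WT), and *S100a9* at 89228 TPM in SiglecF lo and 15355 TPM in SiglecF hi neutrophils (76228 and 13719 TPM in WT). *Retnlg*, a resistin-like gene of neutrophils, was at 24002 TPM in SiglecF lo and 1360.5 TPM in SiglecF hi neutrophils, a centred ratio of -4.74 (-4.78 to -4.70). *Cxcr2*, the receptor for CXC chemokines, was at 954 TPM in SiglecF lo and 372 TPM in SiglecF hi neutrophils. *Padi4*, which citrullinates histones in extracellular traps, had a centred ratio of -3.61. *Csf3r*, the G-CSF receptor, and *Trem1*, an activating receptor, fell least, with -1.26 and -1.03. *Il1r2*, the decoy receptor for IL-1, was the gene that did not pass 1, at 2960.1 to 2889.7 TPM. The 14 genes together summed to 215005 TPM in SiglecF lo and 36427 TPM in SiglecF hi neutrophils of *Cd300a-/-* mice. Of 9 Stefin A genes in the files, which encode cysteine protease inhibitors, 7 were tested and all 7 fell, with a median of -4.12 (-3.03 in WT). The copies of this cluster are alike in sequence, so the values of single genes are uncertain, and the sum of the family went from 4928 to 1010.3 TPM.

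**Figure D2:**
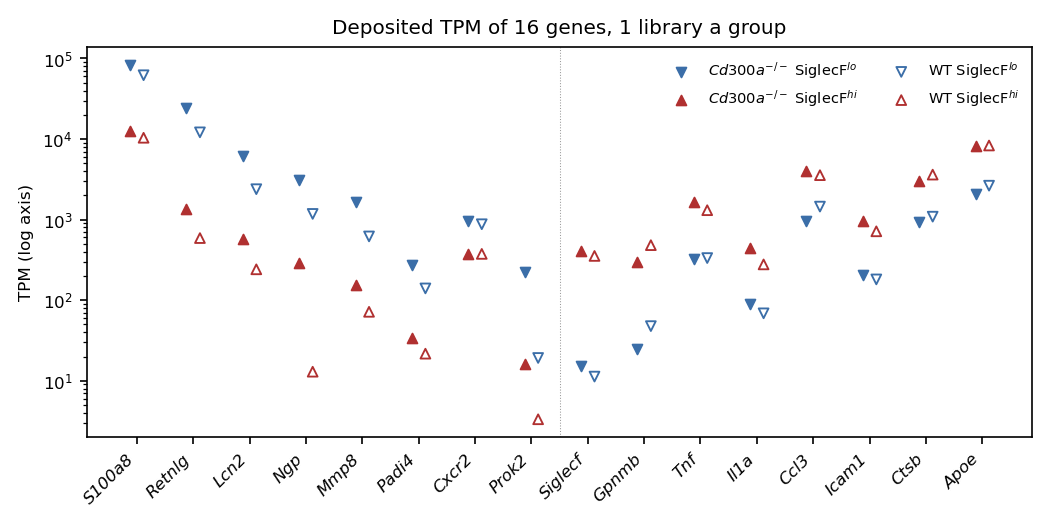
Deposited TPM of 16 genes on a log axis, 1 symbol for each library, with SiglecF lo as downward and SiglecF hi as upward triangles, *Cd300a-/-* filled and WT open. In both genotypes the 8 genes left of the dotted line lie lower, and the 8 right of it higher, in SiglecF hi neutrophils. *S100a8*, *Retnlg*, *Lcn2*, *Ngp*, *Mmp8*, *Padi4*, *Prok2*, *Siglecf*, *Il1a* and *Icam1* lie higher in *Cd300a-/-* than in WT in both subsets. *Gpnmb*, *Ctsb* and *Apoe* lie lower, and *Cxcr2*, *Tnf* and *Ccl3* differ in direction between the subsets.

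Specific granule genes move together in maturing neutrophils, and factors of the C/EBP family regulate many of them, so their promoters were searched for the letters TTGCNNAA on both strands (TTNNGCAA on the other). RefSeq promoters of GRCm38.p6, from 250 bases before to 50 bases after the start, were matched by symbol. The letters occurred in 3547 of all 32851 promoters (10.8%), in 10.7% of the 5227 tested genes that matched, in 14.4% of 478 genes that fell and in 11.9% of 336 that rose. They occurred in 3 of 10 specific granule genes, 2 of 7 gelatinase granule genes, 4 of 12 circulating neutrophil genes and 2 of 8 Stefin A genes. The 3 specific granule promoters with a match are shown because they hold the letters, as the 250 bases before the start, read 5′ to 3′ on the strand of the gene, with the matches in capitals. The other 4 specific granule genes that fell had no match. A match is a description of these letters, not a binding site. They lie at chr9:110419558-110419807 on the plus strand for *Ngp*, chr9:111019042-111019291 on the plus strand for *Ltf* and chr2:32387740-32387989 on the minus strand for *Lcn2*.
Ngp: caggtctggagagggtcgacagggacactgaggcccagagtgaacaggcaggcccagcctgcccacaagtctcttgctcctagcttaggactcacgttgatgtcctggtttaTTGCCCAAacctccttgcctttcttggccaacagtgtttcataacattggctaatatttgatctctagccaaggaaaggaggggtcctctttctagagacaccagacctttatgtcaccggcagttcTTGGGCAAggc
Ltf: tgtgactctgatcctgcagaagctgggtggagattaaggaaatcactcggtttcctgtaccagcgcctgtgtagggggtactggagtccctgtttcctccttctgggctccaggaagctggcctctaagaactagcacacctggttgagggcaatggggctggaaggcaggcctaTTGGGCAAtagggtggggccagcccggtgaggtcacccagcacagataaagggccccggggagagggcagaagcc
Lcn2: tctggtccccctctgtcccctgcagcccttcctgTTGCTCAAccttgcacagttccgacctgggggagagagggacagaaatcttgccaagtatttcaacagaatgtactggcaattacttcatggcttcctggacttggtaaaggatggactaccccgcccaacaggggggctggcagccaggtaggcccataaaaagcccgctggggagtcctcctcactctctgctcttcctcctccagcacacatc

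Among the largest single falls, named by rule, were genes of these lists and others. *Mgst2*, a glutathione transferase of the inner membranes that can make leukotriene C, went from 185 to 7 counts (54.1 to 1.48 TPM), a centred ratio of -5.08, or -5.80 without a pseudocount (exact interval -7.13 to -4.72). In WT it had 34 and 49 counts, and a ratio of -0.76. *Chil5*, a chitinase-like gene, went from 223 to 3 counts (-5.03, or -7.29 without a pseudocount, exact interval -9.58 to -5.72). *Ggt1*, a gamma-glutamyl transferase at the cell surface, went from 1528 to 100 counts (82.8 to 3.91 TPM), a ratio of -4.69. *Prok2*, which encodes the secreted factor prokineticin-2, was at 222 TPM in SiglecF lo and 16.1 TPM in SiglecF hi neutrophils and at 19.2 and 3.33 TPM in WT, with centred ratios of -4.30 and -2.76. *Wfdc21*, an antiprotease-like gene of the circulating neutrophil list, was at 2842 TPM in SiglecF lo and 238 TPM in SiglecF hi neutrophils, a ratio of -4.17. *Cstdc5*, *Stfa1*, *Stfa2* and *Stfa3* of the Stefin A cluster, with *Ly6g*, *Retnlg* and *Lcn2*, completed the 12, and all 12 fell in WT or, for *Mgst2*, had a ratio below 0 there.

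The largest rises were of another kind. Of the 12, 5 genes had 0 counts in *Cd300a-/-* SiglecF lo neutrophils, so their rises are lower bounds against a floor of 3 counts in that library, given after centring and then, in parentheses, uncentred. *Thyn1*, a nuclear protein gene, reached 317 counts in the SiglecF hi library, at least 50.1-fold higher (76.0-fold). *Car2*, the gene of carbonic anhydrase 2, had 335 counts and was at least 52.9-fold higher (80.3-fold). *Fmc1*, for assembly of the mitochondrial ATP synthase, and *Fdx2*, a mitochondrial ferredoxin, were at least 15.6-fold (23.7-fold) and 26.2-fold (39.8-fold) higher. *Ctla2b*, a protease inhibitor gene with a close copy in *Ctla2a*, was at least 56.4-fold higher (85.5-fold), which is uncertain. All 5 had counts in WT SiglecF lo neutrophils, from 27 for *Fdx2* to 68 for *Fmc1*. The span of *Fdx2* overlaps *Gm38431* and *Gm49373*, that of *Ctla2b* overlaps *Gm49391* and others, and that of *Zc3h11a_1*, another of the 12 with 18 and 888 counts, overlaps *Zc3h11a_2* and *Zbed6*, so these values too are uncertain. *Pam16*, of the mitochondrial import motor, went from 4 to 115 counts (2.95, and without a pseudocount 3.77, exact interval 2.38 to 5.67) and overlaps *Glis2* on the other strand.

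The other 5 of the 12 include the receptor of the sort. *Siglecf* itself had a centred ratio of 4.04 (3.86 to 4.21), and 4.32 in WT. *Gpnmb*, a transmembrane glycoprotein of lysosome-rich macrophages, went from 652 to 10839 counts, at 25.0 TPM in SiglecF lo and 299 TPM in SiglecF hi neutrophils and 47.7 and 482 TPM in WT, and its ratios were 2.93 and 2.78. *Scimp*, an adaptor of Toll-like receptor signalling, was at 10.8 TPM in SiglecF lo and 149.6 TPM in SiglecF hi neutrophils and at 32.8 and 91.2 TPM in WT, a ratio of 3.08 (2.75 to 3.40) against 0.91 in WT. *Krt18*, a keratin of simple epithelia, went from 1 to 284 counts, with a centred ratio of 3.94, and of 7.08 without a pseudocount (exact interval 4.59 to 12.39), so the size of its rise is poorly known. *Mb*, the myoglobin of heart muscle, went from 11 to 366 counts (3.21, and 3.98 without a pseudocount, exact interval 3.13 to 5.00) and had 61 and 170 counts in WT. Of the 12 genes, *Siglecf*, *Krt18*, *Gpnmb*, *Pam16*, *Fdx2* and *Ctla2b* rose in WT as well.

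The genes known from SiglecF hi neutrophils of other tissues were mostly higher. Of 18, 9 rose and none fell (11 higher uncentred), with a median of 0.94 (1.54 uncentred, 0.82 in WT). *Icam1*, an adhesion ligand for leukocyte integrins, was at 205 TPM in SiglecF lo and 955 TPM in SiglecF hi neutrophils (181 and 716 TPM in WT), a centred ratio of 1.62. *Spp1*, the gene of osteopontin, was at 884 TPM in SiglecF lo and 2815 TPM in SiglecF hi neutrophils, a ratio of 1.07. Others of the list stayed inside the limits. *Cd274*, which encodes PD-L1, was at 52.5 to 70.6 TPM, *Vegfa* at 63.4 to 102 TPM, *Tgfb1* at 128 to 205 TPM, *Myc* at 19.1 to 19.4 TPM and *Cd9* at 1333 to 1281 TPM. *Cd274* and *Myc* lay above 0 only without centring.

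Of 13 cytokine genes tested, 4 rose and 1 fell (6 and 0 uncentred), with a median of 0.36 (0.96 uncentred, 0.22 in WT). *Il1a*, an alarmin of the IL-1 family, was at 89.2 TPM in SiglecF lo and 441 TPM in SiglecF hi neutrophils (68.7 and 278 TPM in WT), a centred ratio of 1.69. *Il23a*, a subunit of IL-23, was at 15.8 TPM in SiglecF lo and 94.5 TPM in SiglecF hi neutrophils, a ratio of 1.90, and *Tnfsf9*, the ligand of 4-1BB, at 9.98 TPM in SiglecF lo and 69.7 TPM in SiglecF hi neutrophils, a ratio of 2.09. *Tnfsf9* passed the limit on the mean through its SiglecF hi level. *Tnf*, at 327 to 1637 TPM, was the other gene to rise. *Tnfsf14*, the gene of LIGHT, fell from 93.0 to 60.3 TPM after centring, and its uncentred ratio was -0.62. *Il1b* was among the 5 highest genes of SiglecF hi neutrophils at 12137 TPM, from 6637 TPM, and its centred ratio was 0.27. In WT it was at 9239 and 9987 TPM, a ratio of -0.42 centred but 0.11 uncentred. *Osm*, a cytokine of the IL-6 family, was at 165 to 156 TPM, and *Il10*, an anti-inflammatory cytokine, at 9.29 to 18.7 TPM.

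Of 10 CC chemokine genes tested, 3 rose and 1 fell (4 and 1 uncentred, median 0.10, -0.10 in WT). *Ccl8*, a chemokine for monocytes, was at 77.7 TPM in SiglecF lo and 543 TPM in SiglecF hi neutrophils (145 and 606 TPM in WT), a centred ratio of 2.19 (1.99 to 2.38). *Ccl3* and *Ccl4*, chemokines made by activated macrophages and neutrophils, rose from 969.8 to 3988 TPM and from 528 to 1849 TPM. *Ccl6* fell from 1964 to 852 TPM, a ratio of -1.81. The chemokines for CCR2, *Ccl2*, *Ccl7* and *Ccl12*, had ratios of 0.05, 0.15 and -0.01, that of *Ccl12* being above 0 without centring and with TMM scaling of the counts. All 6 CXC chemokine genes tested lay above 0, with 2 past 1 (5 uncentred) and a median of 0.81, against 0.07 and none past 1 in WT. *Cxcl10*, an interferon-induced chemokine for T cells, was at 67.0 TPM in SiglecF lo and 262 TPM in SiglecF hi neutrophils (158 and 220.3 TPM in WT), a ratio of 1.35 and -0.06 in WT. *Cxcl5* went from 4.03 to 19.9 TPM (26.8 and 30.8 TPM in WT), and passed the limit on the mean through its SiglecF hi level. *Cxcl2*, the most abundant and a ligand of CXCR2, was at 2121 TPM in SiglecF lo and 5222 TPM in SiglecF hi neutrophils and had a ratio of 0.70. The differences between the genotypes were not tested.

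Several receptor lists changed direction with the scale. Of 13 chemoattractant receptor genes, 5 fell and 1 rose after centring, where falls outnumber rises over all genes too, and 3 higher and 3 lower were past 1 without it. Their median was -0.54 centred but 0.06 uncentred (-0.70 centred in WT). *Cxcr1* fell with *Cxcr2*, from 62.4 to 10.4 TPM, and *Ltb4r1*, the receptor for leukotriene B, fell from 209.6 to 122 TPM. *Ccrl2*, which holds chemerin at the surface without signalling, rose from 476 to 1948 TPM, a ratio of 1.43. *Cxcr4*, the receptor that retains neutrophils in bone marrow, was at 1206 TPM in SiglecF lo and 1801 TPM in SiglecF hi neutrophils. Of 16 genes of the GM-CSF, G-CSF and IL-6 receptors with their JAK, STAT and SOCS partners, 3 fell, *Csf3r*, *Csf2rb* and *Stat5b*, and none rose. Without centring none was past 1, and their median of -0.46 became 0.14. *Stat3* was at 145 TPM in SiglecF lo and 146 TPM in SiglecF hi neutrophils and *Socs3*, a feedback inhibitor of STAT3, at 309 TPM in SiglecF lo and 585 TPM in SiglecF hi neutrophils. Of 15 genes of inhibitory receptors and their phosphatases, 5 fell and 1, *Siglecf*, rose, with a median of -0.47 centred and 0.13 uncentred, and without centring 3 higher and 0 lower were past 1. *Siglece*, *Cd300lf*, *Pirb*, *Pilra* and *Ceacam1* fell after centring only, with ratios from -1.18 to -1.03, or -0.58 to -0.43 uncentred. *Ptpn6*, the gene of the phosphatase SHP-1 that such receptors recruit, was at 431 TPM in SiglecF lo and 464 TPM in SiglecF hi neutrophils.

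Genes of NF-kappaB, the main inflammatory transcription factor, centred on the median of all genes, with a median of 0.05, and 1 of 14 rose (4 uncentred). These counts lie near the shares over all genes, 6.52% and 25.8%. The gene that rose was *Tnfaip3*, which encodes the inhibitor A20, from 177 to 579 TPM. *Nfkbia*, the gene of the inhibitor IκBα, was at 1361 TPM in SiglecF lo and 3558 TPM in SiglecF hi neutrophils, a centred ratio of 0.79. Immediate early and heat shock genes, which tissue digestion can induce, had 1 of 19 rise, *Dusp2*, and a median of -0.09 that became 0.51 without centring, with 3 higher and 0 lower. *Fos* was at 869 TPM in SiglecF lo and 1243 TPM in SiglecF hi neutrophils and *Hspa1a*, which has a close copy in *Hspa1b* and is uncertain, at 37.9 TPM in SiglecF lo and 51.2 TPM in SiglecF hi neutrophils. Of 24 genes of lineage transcription factors, 4 fell and none rose, with a median of -0.24, or 0.36 uncentred, where 3 higher and 0 lower were past 1. Over all genes 9.68% fell and 6.52% rose. *Spi1*, which encodes the myeloid factor PU.1, fell from 693 to 429.8 TPM, and *Rara*, *Max* and *Cebpd* had ratios of -1.29, -1.15 and -1.01. The C/EBP genes *Cebpb*, at 3072 to 2668 TPM, *Cebpa*, at 60.8 to 124 TPM, and *Cebpe*, at 14.6 to 17.8 TPM, did not pass 1.

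Lysosomal genes were higher as a list, though few passed the limit. Of 49 tested, 4 rose (8 in WT), beside 6.52% of all genes, and none fell. Without centring 25 were past 1, and the median was 0.45 (1.05 uncentred, 0.51 in WT). The sum went from 15207 to 33302 TPM in *Cd300a-/-* and from 17865 to 38715 TPM in WT. *Ctsb*, *Acp5* and *Atp6v0d2* were among the genes that rose. *Atp6v0d2*, a subunit of the proton pump found in osteoclasts and macrophages, was at 3.31 TPM in SiglecF lo and 29.5 TPM in SiglecF hi neutrophils (2.29 and 32.3 TPM in WT), a ratio of 2.22. This gene passed the limit on the mean through its SiglecF hi level, which favours a rise. *Ctsd*, the gene of cathepsin D and the most abundant of the list, was at 2318 TPM in SiglecF lo and 5407 TPM in SiglecF hi neutrophils, and *Ctss* at 1184 TPM in SiglecF lo and 3417 TPM in SiglecF hi neutrophils. Other subunits of the proton pump lay on both sides of 0 after centring, from *Atp6v1e1* at 296 to 297 TPM to *Atp6v1c1* at 54.7 to 157 TPM, and none of them passed 1. Macrophages also express most genes of this list. Of 14 cholesterol genes 1, *Idi1*, fell and none rose, against 2 higher and 0 lower uncentred (median -0.08, 0.52 uncentred). *Idi1* passed the limit on the mean through its SiglecF lo level. *Abca1*, which exports cholesterol, was at 34.7 TPM in SiglecF lo and 89.4 TPM in SiglecF hi neutrophils.

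For iron and antioxidant genes the split depended on the scale. Of 23 tested, 5 fell and 1 rose, with a median of -0.13, but 5 higher and 1 lower were past 1 without centring, with a median of 0.47. *Tfrc*, the transferrin receptor that takes up iron, rose from 10.9 to 38.4 TPM, while *Slc40a1*, the iron exporter ferroportin, fell from 239 to 91.2 TPM, a ratio of -1.98. *Slc7a11* and *Gclm*, which supply glutathione, *Txn1* and *Prdx5* were the other genes to fall. The ferritin genes *Ftl1* and *Fth1* were among the 5 highest genes of both libraries. *Ftl1* was at 11459.9 TPM in SiglecF lo and 17118 TPM in SiglecF hi neutrophils and *Fth1* at 11582 TPM in SiglecF lo and 12151 TPM in SiglecF hi neutrophils, and their centred ratios of -0.02 and -0.53 were above 0 without centring. *Hmox1*, which breaks down heme, was at 762 TPM in SiglecF lo and 931 TPM in SiglecF hi neutrophils.

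Genes of glycolysis and the hypoxia response were lower after centring. Of 21 tested, 7 fell and none rose, against 1 higher and 2 lower past 1 without centring, and the median was -0.71 (-0.11 uncentred, -0.60 in WT). *Slc2a3*, a glucose transporter, fell most, from 161 to 36.7 TPM, a ratio of -2.70. *Gpi1*, *Hk3*, *Slc2a1*, *Pgk1*, *Hif1a* and *Pkm* fell with ratios from -1.82 to -1.15. *Ldha* was at 383 TPM in SiglecF lo and 387 TPM in SiglecF hi neutrophils.

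The nuclear genes of the respiratory chain were higher as a list in *Cd300a-/-*. Of 76 tested, 9 rose and none fell (39 higher uncentred), with a median of 0.41 (1.01 uncentred), against none past 1 and a median of 0.02 in WT. Over all genes 6.52% rose, and 25.8% were higher past 1 without centring. *Cox7b*, a subunit of cytochrome oxidase, was at 46.0 TPM in SiglecF lo and 212 TPM in SiglecF hi neutrophils (152 and 249 TPM in WT), a centred ratio of 1.58. The others that rose were *Atp5g2*, *Atp5g1*, *Ndufb5*, *Ndufc2*, *Atp5mpl*, *Cyc1*, *Ndufa5* and *Ndufa10*. *Atp5g1* passed the limit on the mean through its SiglecF hi level. Across the list the sum was 9734 TPM in SiglecF lo and 17553 TPM in SiglecF hi neutrophils of *Cd300a-/-* mice, and 13556 and 17919 TPM in WT. Subunits encoded by the mitochondrial genome did not follow. None of the 13 passed 1, and their median of -0.14 became 0.46 without centring. The 84 cytosolic ribosomal protein genes had a median of 0.19 (0.79 uncentred), with 1, *Rps27l*, past 1 (22 uncentred), against -0.20 in WT. Their sum was 47564 and 79604 TPM in *Cd300a-/-* and 69083 and 84977 TPM in WT. Both sums were lowest in *Cd300a-/-* SiglecF lo neutrophils.

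Most respiratory and ribosomal transcripts are short, and the ratio moved with gene length in opposite ways in the 2 genotypes. Over 10 equal groups of genes by length, the median centred ratio went from 0.20 in the shortest to -0.20 in the longest in *Cd300a-/-*, and from -0.14 to 0.11 in WT. In *Cd300a-/-*, 75 genes rose and 57 fell among the shortest, and 5 rose and 70 fell among the longest. The 75 are 11.6% of the shortest group, and 13.3% of the next shortest group rose. Of the nuclear respiratory genes 9 of 76 rose, and of the ribosomal genes 1 of 84. The part of gene length in these counts was not tested. The level of *Cd300a-/-* over WT moved with length in SiglecF lo neutrophils, where the median log2 ratio went from -0.47 to 0.35, and less in SiglecF hi neutrophils, from -0.07 to 0.10. With each ratio centred within its length group instead, a choice made after seeing the data, the respiratory median was 0.25 and the ribosomal median 0.00. How library quality bears on this pattern was not tested.

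**Figure D3:**
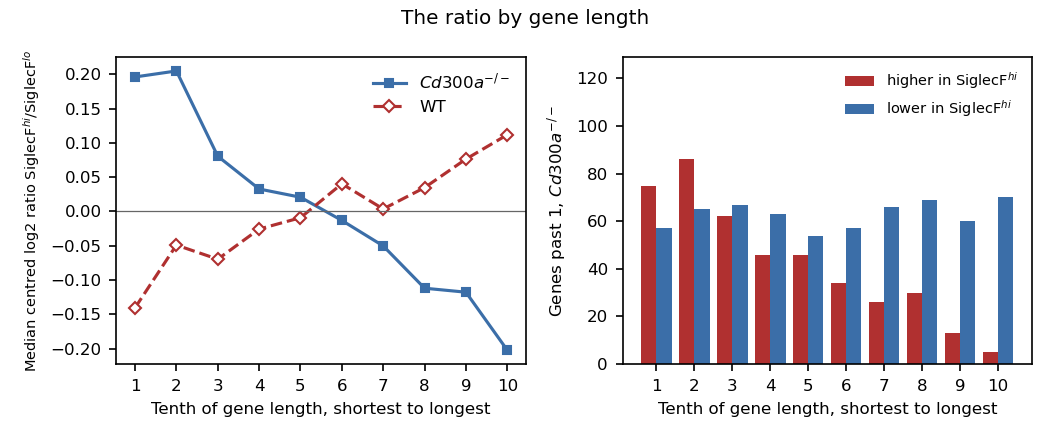
Left, median centred log2((TPM + 1) ratio) of SiglecF hi to SiglecF lo neutrophils in 10 groups of genes by length, in *Cd300a-/-* (filled squares) and WT (open diamonds); right, number of genes past 1 in each group in *Cd300a-/-*, higher in red and lower in blue. The *Cd300a-/-* median goes from 0.20 to -0.20 and the WT median from -0.14 to 0.11, and without centring each median is higher by 0.60 or 0.53, so that all lie above 0.

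Interferon-induced genes lay at the median of all genes in *Cd300a-/-* and below it in WT. Of 33 tested, 2 rose and 4 fell (3 higher and 1 lower without centring), with a median of -0.01 that became 0.59 without centring and 0.04 with TMM scaling. In WT 11 of the same genes fell, beside 7.81% of all genes, with a median of -0.64 that became -0.11 without centring. *Isg15*, a ubiquitin-like modifier, was at 518 TPM in SiglecF lo and 482 TPM in SiglecF hi neutrophils, a centred ratio of -0.71, and at 1016 and 466 TPM in WT, a ratio of -1.66. *Ifit1* was at 79.8 TPM in SiglecF lo and 143 TPM in SiglecF hi neutrophils and at 221 and 124 TPM in WT. For both genes the SiglecF hi levels lay close together and the SiglecF lo level was lower in *Cd300a-/-* than in WT. *Bst2* and *Ifit2* were the genes that rose, with ratios of 1.16 and 1.13. *Ifitm1*, *Oas3*, *Isg20* and *Ifitm3* fell, *Ifitm1* most, from 3477 to 804 TPM, and *Ifitm3* least, from 2554 to 1934 TPM. Of 15 genes of MHC class I presentation 1 rose, *Psmb10*, and none fell (2 higher uncentred), with a median of 0.09 (-0.47 in WT). The count that rose was near the 6.52% of all genes, and the uncentred count was under the 25.8% of all genes. None of 6 MHC class II genes passed 1, and their median was -0.80 (-0.20 uncentred, -0.66 in WT), with *Cd74* at 1353 TPM in SiglecF lo and 1235 TPM in SiglecF hi neutrophils.

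Survival genes had 4 of 18 past 1 upward and 1 downward (7 and 0 uncentred), with a median of -0.09 that became 0.51 without centring. The *Bcl2a1* copies, which oppose apoptosis and are too alike to be counted apart, made up 3 of the 4. *Bcl2a1b*, the most abundant copy, was at 607 TPM in SiglecF lo and 2448 TPM in SiglecF hi neutrophils. *Pmaip1*, the proapoptotic NOXA, was the other, from 72.3 to 233 TPM, and *Bid*, also proapoptotic, fell with a ratio of -1.14. *Mcl1*, on which neutrophil survival depends, was at 1524 TPM in SiglecF lo and 1827 TPM in SiglecF hi neutrophils. Of 23 genes of matrix remodelling and angiogenesis, 7 fell and 1, *Spp1*, rose, with a median of -0.27 (0.33 uncentred, with 3 higher and 5 lower). Of the 7, 5 belong to the gelatinase granule list too, and the others were *Prok2* and *Plaur*, the urokinase receptor, at 666 TPM in SiglecF lo and 391 TPM in SiglecF hi neutrophils. *Mmp12*, the macrophage elastase, was at 15.6 TPM in SiglecF lo and 46.9 TPM in SiglecF hi neutrophils and at 1.09 and 68.5 TPM in WT, with centred ratios of 0.93 and 4.52. Of its 4 levels, that of WT SiglecF lo neutrophils lay apart. *Thbs1*, the gene of the angiogenesis inhibitor thrombospondin-1, was at 1183 TPM in SiglecF lo and 994 TPM in SiglecF hi neutrophils.

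**Figure D4:**
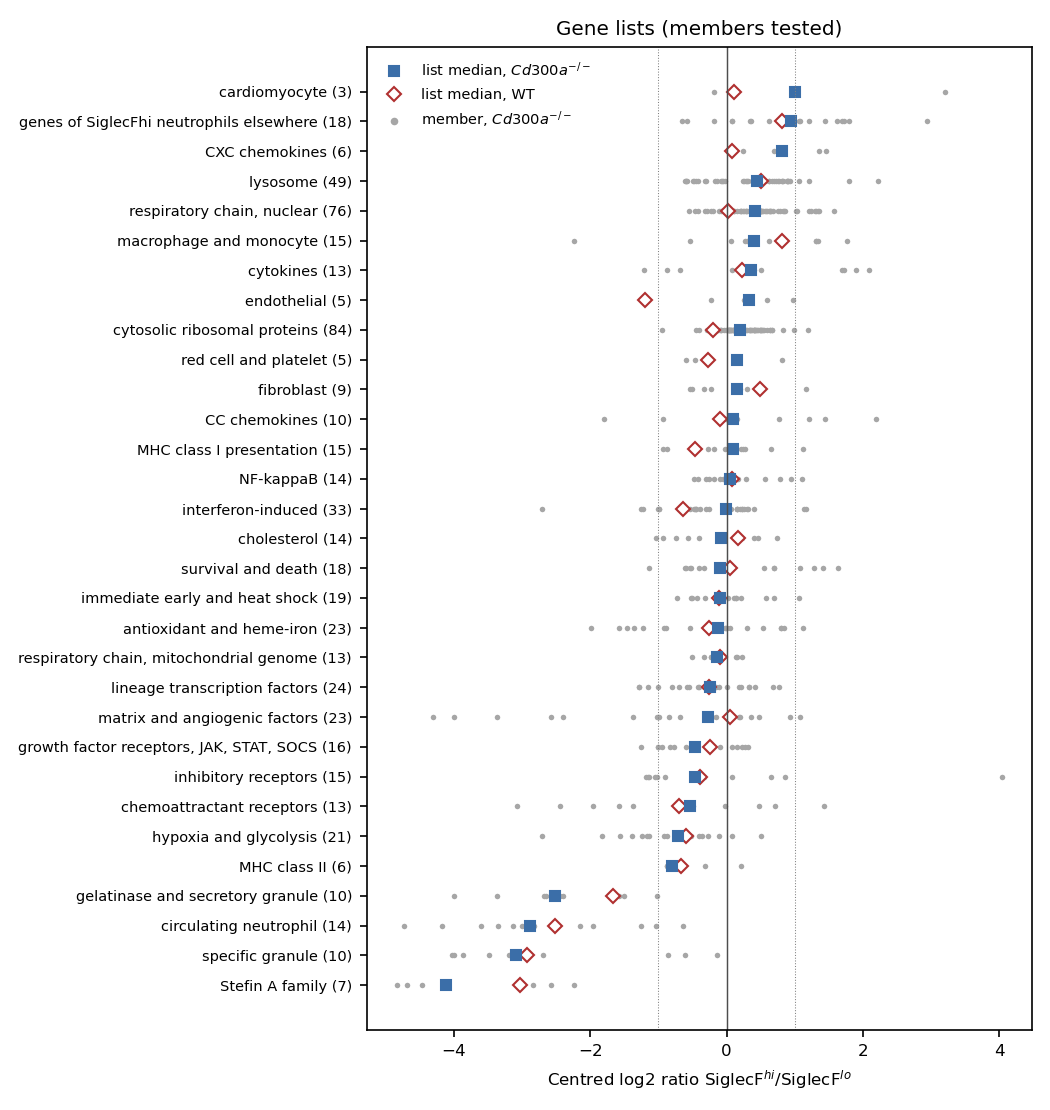
Centred log2((TPM + 1) ratio) of SiglecF hi to SiglecF lo neutrophils for lists with 3 or more genes tested, with the list median in *Cd300a-/-* as squares, the WT median as diamonds and each *Cd300a-/-* gene as a gray dot. In *Cd300a-/-* the specific and gelatinase granule, circulating neutrophil and Stefin A medians lie below -2; without centring every *Cd300a-/-* value is higher by 0.60, which makes the 11 medians between -0.60 and 0 positive.

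These values describe transcripts on day 3 after MI/R, and proteins were not measured. A second set of mice was not sequenced, so how far 2 pools of the same kind differ is not known here. No molecular identifiers tagged the reads, which may repeat a molecule, so the intervals and floors cover counting error alone. The 2 *Cd300a-/-* libraries differ in depth, in the TPM share of their top genes and in the course of the ratio with gene length, and purity of the sorted cells was not measured here. How much of the difference between the genotypes belongs to the loss of CD300a was not tested.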

How the data were processed

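RNA-Seq files of 4 libraries were read. Per the labels and methods, RNA of sorted cardiac neutrophils was poly(A) selected, made into libraries with the NEBNext Ultra II kit and sequenced in pairs, and the authors calculated TPM with CLC Genomics Workbench 20.0. The submitters' processing notes name GRCm39, and aligner settings and strand are not given in the sources used here. The authors deposited a whole, unnormalized count for each gene, and whether reads or pairs were counted is not stated. The deposited TPM has a common total across files. The deposited RPKM is scaled for length and depth, and was used for gene length. A deposited signal named CPM, the counts scaled by 1 factor per library, was read for checks.

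The value was log2((TPM + 1) ratio) of SiglecF hi to SiglecF lo, for genes with a mean TPM over 10 in the 2 libraries, centred on their median and counted past 1. A pseudocount of 1 understates the change of low genes. The 95% counting interval is that of the ratio with its pseudocount, which narrows it at low TPM, from the Poisson error of both counts. For 5 of the largest changes with few counts an exact interval without pseudocount, added after their values were seen, is given. A count of 0 was given a floor of 3 counts. Genes named were the sorting markers and *Cd300a*, the 12 largest rises and 12 largest falls, members of 38 lists, the 5 highest genes of each library, and the 6 largest differences from WT each way among genes past 1. Predicted genes and pseudogenes were left out of the rises and falls. Genes that overlap a named gene, and those said to be so, were chosen otherwise. The members and lists were chosen with earlier results of these data known. Alternatives were uncentred ratios, a pseudocount of 0.1, 4 other TPM limits, TMM-scaled counts (edgeR 4.0.16, R 4.3.3), a threshold of 0.5 and, added later, centring within length groups. Calculations ran in pandas 2.3.3 with numpy 2.4.6 under Python 3.11.15, figures in matplotlib 3.10.9, and the code was tested on simulated data. Promoters came from RefSeq (GRCm38.p6).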

Additional observations from a re-analysis of the deposited data

Results flagged for a closer look

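Some genes had centred ratios on opposite sides of 0 in *Cd300a-/-* and WT. The difference between the centred ratios of the 2 genotypes was not tested, since each rests on 1 library a group. *1810049J17Rik*, *Tst*, *Tnc*, *Psmg3*, *Gvin2*, *Ctla2a* and *Gm29094* were picked for the size of this difference, so it describes how they were chosen. The other genes belong to lists.

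The centred ratio was lower in *Cd300a-/-* than in WT for the following genes. *Tnc*, the gene of the wound matrix protein tenascin-C, was at 24.4 TPM in SiglecF lo and 8.55 TPM in SiglecF hi neutrophils in *Cd300a-/-* and at 4.48 and 17.7 TPM in WT, a difference of -3.24. *Tst*, a mitochondrial sulfurtransferase, was at 21.6 and 2.45 TPM and at 1.70 and 5.28 TPM in WT, a difference of -3.99. *Psmg3*, a proteasome assembly chaperone, was at 15.6 and 7.64 TPM and at 3.53 and 14.2 TPM in WT, a difference of -2.75. *Gvin2*, of an interferon-inducible GTPase family with close copies, and *1810049J17Rik*, which overlaps *Golph3* on the other strand, lacked counts in the SiglecF lo library of WT and are uncertain, with differences of -4.18 and -5.04. The fibroblast gene *Postn*, at 168 and 175 TPM, had a difference of -1.30 and lay above 0 in both genotypes without centring (0.06 and 1.29), the cholesterol gene *Idi1* of -1.54 and the heat shock gene *Hspa1b*, which has a close copy, of -1.50.

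The centred ratio was higher in *Cd300a-/-* than in WT for the endothelial genes *Fabp4* and *Cdh5*, among others. *Fabp4*, a fatty acid-binding protein, was at 117 TPM in SiglecF lo and 349.8 TPM in SiglecF hi neutrophils in *Cd300a-/-* and at 412 and 259.8 TPM in WT, a difference of 2.18. *Cdh5*, the gene of VE-cadherin, was at 9.91 and 23.9 TPM and at 25.1 and 16.9 TPM in WT, a difference of 1.67. The T cell chemokine *Ccl5*, with centred ratios of 0.77 and, in WT, -1.03, had a difference of 1.79. *Ndufa5*, of respiratory complex I, had a difference of 1.71. *Ctla2a* had 27 and 251 counts in *Cd300a-/-* and a difference of 3.10, and *Gm29094*, with 0 and 146 counts, of 6.01. Both are uncertain, since *Ctla2a* has a close copy and *Gm29094* overlaps *Bcl2a1b* and *Mthfs* on the same strand.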

How the results depend on the processing

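The counts of genes past 1 depended on the settings. Without centring 1672 genes were higher and 243 lower, a mean TPM limit of 1 gave 1093 and 1259 of 11332 genes, a limit of 10 TPM in both libraries gave 233 higher of 5414 genes, and a threshold of 0.5 gave 1355 and 1534. The other settings stayed within 1.5 times the counts of 423 and 628, with 475 and 599 under TMM scaling, 478 and 663 with a pseudocount of 0.1, and 393 and 637 with centring within length groups, which was chosen after seeing the data and shared 363 and 576 genes with the reported lists. The 141 named genes past 1 kept their direction in every setting in which they were tested, and 105 stayed past 1 without centring, 136 under TMM scaling and 129 with centring within length groups. The median of the cardiomyocyte list reversed from 1.00 to -0.10 with a limit of 10 TPM in both libraries, where 1 gene was left. Of 32 list medians, 4 changed sign with that limit, 4 with centring within length groups and 11 without centring. At most 2 did so in any other setting. No paired analysis was possible because the result comes from no test, with 1 library a group, and leaving out a library would empty its group. Precision was limited most for genes that rose from few counts: 6 tested genes had 0 counts in *Cd300a-/-* SiglecF lo neutrophils and none did in *Cd300a-/-* SiglecF hi neutrophils.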

Other observations

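The genes here were chosen after their values were seen. *Actb* and *Actg1*, the cytoplasmic actins, fell from 8609.8 to 5711 TPM and from 7631 to 4378 TPM, with centred ratios of -1.19 and -1.40. *Coro1a* and *Lcp1*, which bind actin filaments, had ratios of -1.36 and -1.11. Without centring, these 4 ratios were -0.59, -0.80, -0.76 and -0.51, none past 1. *Selplg*, the ligand of P-selectin, fell from 1711 to 697 TPM. *S100a11*, a calcium-binding protein, fell from 10868 to 4085 TPM, and *Ifitm6* from 2771 to 271 TPM, a ratio of -3.95. *Wfdc17* and *Taldo1* had ratios of -2.45 and -1.99. *Alox5ap*, which activates leukotriene synthesis, fell from 3489.6 to 1379.8 TPM, and *Anxa1*, the gene of the proresolving protein annexin A1, from 1452 to 452 TPM. *Ptgs1*, of prostaglandin synthesis, rose from 30.8 to 130.4 TPM. *Hdc*, which makes histamine, fell from 2287 to 1103 TPM, and *Nos2*, the inducible nitric oxide synthase, from 36.2 to 4.15 TPM. *Nos2* passed the limit on the mean through its SiglecF lo level. *Nfe2* and *Serpinb1a*, an inhibitor of neutrophil proteases, had ratios of -2.91 and -2.62.

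*Clec4n*, the gene of Dectin-2, rose from 361 to 1444 TPM, *Selenop*, which carries selenium, from 568 to 2209 TPM, *Gpr84*, a receptor for medium-chain fatty acids, from 70.3 to 378 TPM, and *Cd69*, an activation antigen, from 41.2 to 218 TPM. *Anpep*, an aminopeptidase, *Hvcn1*, the proton channel, and *Ccng1*, a p53 target, had ratios of 2.06, 1.58 and 2.11. *Anpep* and *Hvcn1*, at 9.45 and 6.68 TPM in SiglecF lo neutrophils, passed the limit on the mean through their SiglecF hi levels. *Lars2*, the mitochondrial leucyl-tRNA synthetase, was at 350.0 TPM in SiglecF lo and 48.6 TPM in SiglecF hi neutrophils and at 66.4 and 57.0 TPM in WT, with ratios of -3.42 and -0.75, so that *Cd300a-/-* SiglecF lo was the library that lay apart. Its level can include reads of ribosomal RNA, which was not tested.

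Genes of vascular smooth muscle and pericytes were lower in SiglecF hi neutrophils of both genotypes. Of 10 such genes 5 were tested, *Acta2*, *Tagln*, *Myl9*, *Myh11* and *Rgs5*, and all 5 fell, with a median of -2.72 in *Cd300a-/-* and -3.24 in WT. *Myh11*, at 33.7 TPM in SiglecF lo and 5.05 TPM in SiglecF hi neutrophils of *Cd300a-/-* mice, passed the limit on the mean through its SiglecF lo level. The 10 genes summed to 439 TPM in SiglecF lo and 102 TPM in SiglecF hi neutrophils of *Cd300a-/-* mice, and to 1150.3 and 169 TPM in WT, with *Acta2* the most abundant. Their part in the other results was not tested.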
